A study of Mus musculus with 14 samples.

Results

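The 5 clones described here carried the deletion of an enhancer, named Chen2008-25, on both copies of the chromosome (genotype KO, -/-), and were 5 of the 14 clones of the series. They were chosen by that genotype in the deposited genotype table, and each was compared with itself: the reads of its 129 alleles against the reads of its Castaneus (CAST) alleles. Since neither chromosome of a KO clone is intact at the deleted site, the 2 columns of a clone differ by the strain of origin and not by the presence of the deletion. Of 472 genes in the capture panel, 438 could be placed on an autosome, and 406 of these had a mean of 10 or more reads per KO clone, both alleles summed, and were tested. The remaining panel genes were 32 autosomal genes under that minimum, 14 X-linked genes and 20 genes without a matched chromosome.

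All clones were female mouse embryonic stem cells from a single F1 cross line of the 129 and CAST strains, a hybrid in which sequence differences tell the parental copies of a gene apart. They were grown without serum on gelatin and laminin, in medium with leukaemia inhibitory factor, the MEK inhibitor PD0325901 and the GSK3 inhibitor CHIR99021. The libraries were made from polyadenylated RNA and enriched by hybrid selection, in which probes pull out the transcripts of a chosen set of genes. The comparison set was the 8 clones with a heterozygous deletion of another enhancer, Chen2008-1, of which 6 were deleted on CAST and 2 on 129 if the signs in the genotype table are read in the order of the strain names. The sixth Chen2008-25 clone, E6, was heterozygous (deleted on 129 by the same reading). No clone without a deletion was analysed here. Each clone is a separate clonal line, but all descend from 1 line, so the p-values speak only of how sister clones of 1 line vary. In a single F1 line, the strain of an allele and the parent it was inherited from cannot be told apart.

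Within 1 nucleus, both alleles of a gene meet the same transcription factors, signals and culture conditions. A stable difference in the RNA from the 2 alleles is therefore ascribed in general to sequence or chromatin carried by the chromosome itself, which is called regulation in cis. Such differences can arise in promoters and enhancers, in splicing and in the stability of the transcript, and steady-state RNA does not separate these. Crosses with CAST are widely used for such work because that strain is distant from the laboratory strains and the transcripts carry many informative positions.

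Allelic reads per KO clone ran from 239516 in clone G2 to 891744 in clone H2, and from 135962 to 1332526 in the Chen2008-1 clones. The pooled autosomal reads were evenly split: the 129 share was 50.1% in clone B4, 50% in C4, 49.9% in G2, 49.8% in H2 and 49.9% in H4. Of the counts from 1 to 19, 80.1% to 85.2% were even, as happens when each fragment adds its 2 mates to the count, and intervals on reads are therefore too narrow. None of 26 markers of embryonic stem cells, feeder fibroblasts or early differentiation was in the panel, so the labelled cell type could not be checked against them.

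Reads of X-linked genes, which the selection of autosomal genes leaves out, were nearly all assigned to 129. Over 14 X-linked genes, the KO clones had 22904 reads assigned to 129 and 143 to CAST, a CAST share of 0.620%, with 0.439% to 0.951% in single clones. The Chen2008-1 clones had 29616 and 204 such reads, and clone E6 had 5318 and 20. X-linked genes of a female cell are normally read from both X chromosomes before inactivation and from 1 after it. Whether a CAST X chromosome was present was not tested.

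Across the 406 autosomal genes, 253 (62.3%) differed between the alleles at an adjusted p under 0.05 in edgeR's quasi-likelihood test with clone as a block. The 129 allele was the higher one for 136 genes (33.5%) and the CAST allele for 117 (28.8%), but the larger number was on CAST after TMM scaling (113 and 128). Most differences were small. The median size of the log2 ratio over all genes was 0.31, with quartiles of 0.15 and 0.76, and 136 of the called genes (33.5% of all) differed by less than 1.5-fold. A 2-fold or larger difference was called for 63 genes (15.5%), 32 of them higher on 129 (7.88%) and 31 higher on CAST (7.64%). A 4-fold or larger one was called for 23 genes (5.67%), 11 higher on 129 (2.71%) and 12 higher on CAST (2.96%). The median log2 ratio of 129 over CAST was 0.04, equal to a median 129 share of 50.6%. In 230 genes (56.7%) all 5 clones lay on the same side of a share of 50%, and 218 of these (53.7% of all) were also called.

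Large differences were called mainly in genes with few reads, and small ones in genes with many. Of the 135 genes with the fewest reads (10 to 161 per clone), 62 were called and 35 of these differed 2-fold or more. Of the 136 genes with the most (897 to 49231), 104 were called and 13 differed 2-fold or more. The median SD of the 129 share over the 5 clones fell with depth, from 9.73 percentage points in the former to 3.72 in the 135 genes between them and 1.53 in the latter. Of the 153 genes not called, 34 had a 95% interval of the log2 ratio within -0.2 to 0.2, while 48 had an interval wider than 1 and were not resolved at this depth. Just inside the read minimum were Apold1, with 10 reads per clone and a 129 share of 72.0%, Sp7 with 10.6 reads and 40.4%, and Foxn4 with 10.8 reads and 50.7%. Just outside it were Slc27a5, with 9.40 reads and 88.0%, Emp1 with 9.60 reads and 69.8%, and Ly6c2 with 9.80 reads and 54.6%.

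**Figure D1:**
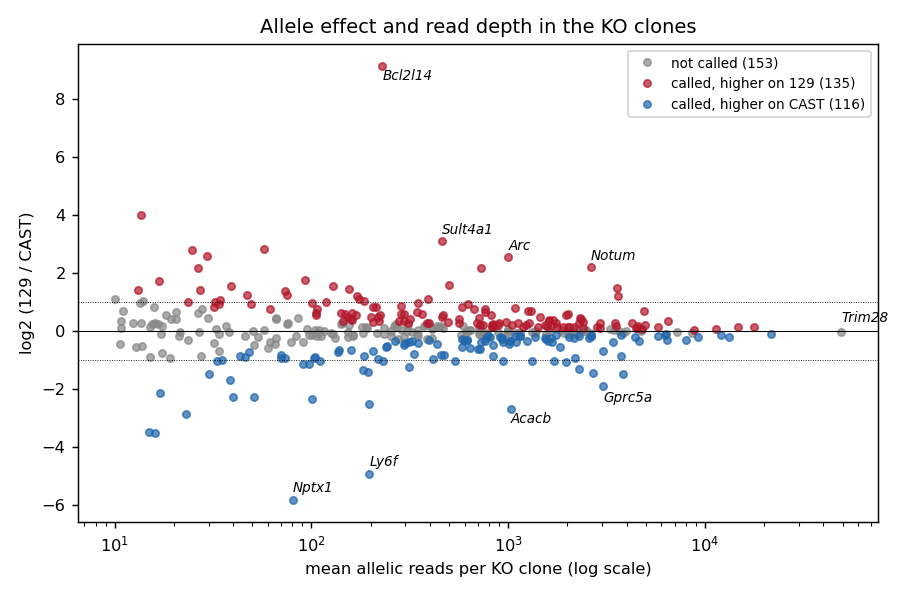
Log2 ratio of 129 over CAST reads in the 5 KO clones (y axis) against the mean reads per clone (x axis, log scale), 1 point per gene with reads from both alleles, coloured by the direction called; dotted lines mark 2-fold. Differences of 2-fold or more are more frequent at the left than at the right, and Trim28, at 49231 reads per clone, lies at -0.01.

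Of the genes tested, 5 had less than 5% of their reads from the weaker allele. Bcl2l14, a member of the Bcl-2 family of apoptosis regulators, was read almost wholly from 129: its share was 100% in clones B4, C4, G2 and H4 and 99.3% in H2. In all, 2 of its 1144 reads came from CAST, a share of 0.175% with an exact Clopper-Pearson 95% interval of 0.0212% to 0.630%, which covers counting error only. That interval takes in the CAST share of the X-linked genes. In the annotation, 14.1% of its exon bases overlap a gene on the other strand, as do 9.25% of those of Gpr19 and 12.6% of those of B3gnt7, described below, and reads of such partners cannot be told apart without strand. Myo18b, an unconventional myosin of muscle, had 106 reads from 129 and 0 from CAST, at least 35.3-fold higher on 129 against a floor of 3 counts over the group (adjusted p = 5.86e-09). Cabp5, a calcium-binding protein known from the retina, had 0 reads from 129 and 84 from CAST, at least 28.0-fold higher on CAST (adjusted p = 1.10e-07).

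Nptx1 and Ly6f were the other two genes of this kind, both on the CAST side. Nptx1, a neuronal pentraxin of synapses, had 129 shares of 1.87%, 0%, 3.57%, 2.78% and 0% in clones B4, C4, G2, H2 and H4, from 7 reads against 395. Its log2 ratio was -5.82 (SE 0.37, adjusted p = 7.60e-18). Ly6f, of the Ly6 family of small membrane-anchored proteins, had shares of 1.5%, 2.89%, 4.55%, 4.47% and 4.0%, and a log2 ratio of -4.93 (SE 0.23, adjusted p = 3.73e-23). In both genes every clone was below 5%. Ly6 genes are near copies of each other, so the split of reads among them is uncertain.

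The promoter sequence of 4 genes is shown, taken from different parts of the range: nearly all reads from 129 (Bcl2l14), most from 129 (Hebp1), most from CAST (Acacb) and an even split at the highest depth (Trim28). No gene with nearly all reads from CAST is among them. Each is the 250 bases before the annotated start, 5′ to 3′ on the strand of the gene, from RefSeq with the build GRCm38.p6, and CpG pairs, the sites of DNA methylation, are in capitals. The windows are chr6:134396079-134396328 on the plus strand for Bcl2l14 (the first of 2 listed), chr6:135168216-135168465 on the minus strand for Hebp1, chr5:114165268-114165517 on the plus strand for Acacb and chr7:13023902-13024151 on the plus strand for Trim28.
Bcl2l14: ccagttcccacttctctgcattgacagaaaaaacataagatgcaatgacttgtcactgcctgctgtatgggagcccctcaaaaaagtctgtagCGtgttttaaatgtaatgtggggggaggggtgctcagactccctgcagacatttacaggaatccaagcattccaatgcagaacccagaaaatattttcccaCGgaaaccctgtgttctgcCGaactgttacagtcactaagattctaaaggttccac
Hebp1: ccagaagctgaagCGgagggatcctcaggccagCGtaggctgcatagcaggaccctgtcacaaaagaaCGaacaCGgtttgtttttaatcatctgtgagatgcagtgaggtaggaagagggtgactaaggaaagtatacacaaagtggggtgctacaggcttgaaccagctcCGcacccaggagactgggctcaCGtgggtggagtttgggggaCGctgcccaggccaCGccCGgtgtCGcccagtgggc
Acacb: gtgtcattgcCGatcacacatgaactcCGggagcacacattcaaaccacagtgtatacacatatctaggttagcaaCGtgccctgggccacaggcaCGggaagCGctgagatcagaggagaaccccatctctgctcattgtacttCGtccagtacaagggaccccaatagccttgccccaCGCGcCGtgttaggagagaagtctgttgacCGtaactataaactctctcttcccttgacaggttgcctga
Trim28: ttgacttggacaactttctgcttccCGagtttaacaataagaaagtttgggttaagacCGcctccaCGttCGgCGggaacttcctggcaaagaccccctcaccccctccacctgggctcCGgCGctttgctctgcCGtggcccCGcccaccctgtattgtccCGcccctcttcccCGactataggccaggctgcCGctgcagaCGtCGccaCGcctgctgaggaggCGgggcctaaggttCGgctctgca
Bcl2l14 had 3 CpG pairs, Hebp1 10, Acacb 10 and Trim28 17, beside a median of 6 (quartiles 2 and 16) over 27025 such windows. This is the reference strain's sequence. The 129 and CAST letters at these promoters were not used here, and a promoter was matched for 67.7% of the genes tested (275 of 406), so promoter letters were not compared between classes of genes.

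Beyond Bcl2l14 and Myo18b, several genes with many reads came mainly from the 129 allele. Arc, an immediate-early gene of neurons, had 129 shares of 85.0%, 85.9%, 85.1%, 85.4% and 86.2% in clones B4, C4, G2, H2 and H4. Their SD was 0.541 percentage points, and the 129 allele was 5.89-fold higher (log2 ratio 2.56, SE 0.07, adjusted p = 2.79e-31). Notum, an enzyme that inactivates Wnt proteins by removing their lipid, had shares of 82.7%, 84.5%, 84.4%, 77.6% and 84.2%, with clone H2 the lowest. Its 129 allele was 4.65-fold higher (log2 ratio 2.22, SE 0.06, adjusted p = 1.83e-31), and 29.4% of its exon bases overlap an antisense gene in the annotation.

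Hebp1, a heme-binding protein whose promoter is shown above, had shares of 83.0%, 81.8%, 77.7%, 81.4% and 84.0% and was 4.5-fold higher on 129 (log2 ratio 2.17, SE 0.08, adjusted p = 7.13e-26). Sult4a1, a sulfotransferase-family protein of the brain, had shares of 91.3%, 90.8%, 90.3%, 87.8% and 84.2%. It was 8.59-fold higher on 129 (log2 ratio 3.10, SE 0.12, adjusted p = 2.18e-25). In each of these 4 genes the lowest clone was above 77%.

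The other genes among the 12 largest on the 129 side had fewer reads and wider spread. Apol6, of the apolipoprotein L family, had 64 reads from 129 and 4 from CAST, with clone shares from 85.7% to 100%. Tmem98, a membrane protein, had a mean share of 88.6% ± 8.2 (SD, n = 5) and Zfp354a, a zinc-finger protein, one of 86.1% ± 6.32. D430041D05Rik reached 87.3% ± 15.5, Mroh4 85.8% ± 15.9 and Rhpn1 78.9% ± 6.48. All 5 clones were above 60% for each of these genes.

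On the CAST side, the 4-fold or larger difference with the smallest SE was in Acacb, the acetyl-CoA carboxylase of the mitochondrial surface, whose product restrains fatty acid oxidation. Its 129 shares were 12.4%, 13.3%, 13.9%, 15.1% and 13.6% in clones B4, C4, G2, H2 and H4, so that the CAST allele was 6.33-fold higher (log2 ratio -2.66, SE 0.07, adjusted p = 1.99e-31). Cmklr1, the receptor of the chemoattractant chemerin, had shares of 17.2%, 11.9%, 13.2%, 13.8% and 19.2% and was 5.71-fold higher on CAST (log2 ratio -2.51, SE 0.17, adjusted p = 2.10e-17). Wscd2 had shares of 15.4%, 17.8%, 9.30%, 19.5% and 19.6% and was 5.00-fold higher on CAST (log2 ratio -2.32, SE 0.22, adjusted p = 2.83e-12). The clones of these 3 genes all lay below 20%.

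Gprc5a, an orphan receptor induced by retinoic acid, was 3.70-fold higher on CAST but differed more between clones. Its 129 shares were 23.8%, 24.7%, 28.8%, 14.4% and 18.0% (log2 ratio -1.89, SE 0.08, adjusted p = 2.05e-24). Clone G2 had the highest share and clone H2 the lowest, at a mean of 3038 reads per clone. The remaining genes of the 12 largest on this side had 15 to 51.2 reads per clone. They were Ptafr, the receptor of platelet-activating factor (mean share 14.7% ± 17.2), H2afy3 (13.6% ± 12.6), Serhl, a serine hydrolase-like gene (20% ± 17.7), Svop, a synaptic vesicle protein (13.9% ± 10.8), and Tnnt2, cardiac troponin T (17.5% ± 17.6), each SD over 5 clones. Single clones of these 5 genes ran from 0% up to 25.9% in Svop and 40% in Serhl and Tnnt2.

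**Figure D2:**
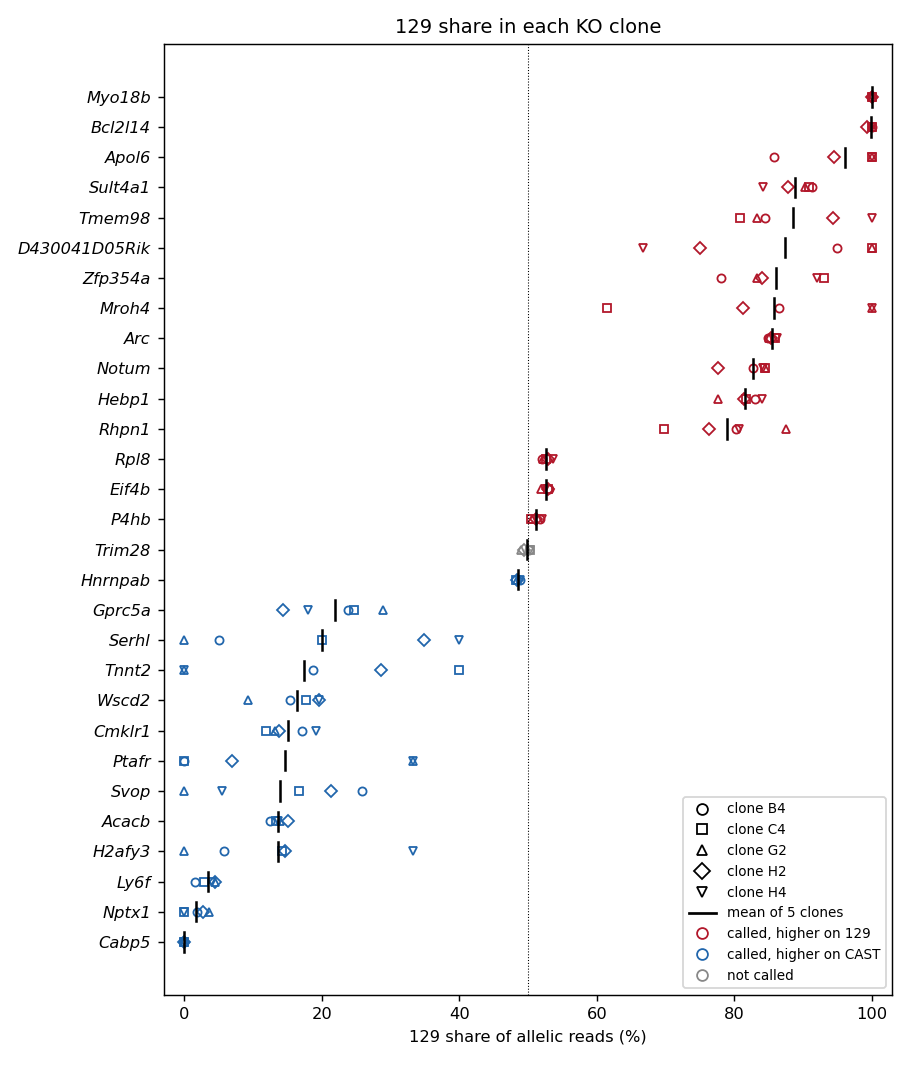
Share of reads from the 129 allele (x axis, percent) for the genes of largest difference and for the best measured balanced genes, 1 point per KO clone with the mean as a bar. Arc and Acacb have narrow spreads, while genes with few reads, such as Tnnt2 and Mroh4, spread widely.

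At the other end were abundant genes whose alleles were close to equal. Trim28, a corepressor recruited by zinc-finger proteins to silence retroelements, had the most reads of all genes tested (49231 per clone). Its 129 shares were 50.1%, 50.3%, 48.9%, 49.4% and 50.2%, with a log2 ratio of -0.01 (SE 0.01, adjusted p = 0.307). With ratios centred on the median gene it was called, at -0.05, higher on CAST (adjusted p = 3.90e-05). Hnrnpab, an RNA-binding protein, was called at a share of 48.5% ± 0.242 (adjusted p = 9.16e-07), although 29.1% of its exon bases overlap a gene on the other strand. Rpl8, a protein of the large ribosomal subunit, was called at 52.7% ± 0.645 (adjusted p = 1.93e-11) and Eif4b, a translation initiation factor, at 52.6% ± 0.469. P4hb, a protein disulfide isomerase, was called at 51.2% ± 0.723 (adjusted p = 0.00297) but not after TMM scaling (adjusted p = 0.215). For differences of this size, 1 to 3 percentage points, a small bias toward either allele in the assignment of reads was not tested.

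The panel genes were then grouped by family, using lists of symbols chosen with earlier results of these data known. A list holds only the symbols written into it, and other tested genes of the same kind lie outside it. The counts describe the lists only. They are read against the 33.5% and 28.8% of all genes that were called in each direction. Of 25 zinc-finger transcription factors, 10 were higher on 129, 5 were higher on CAST and 10 were not called, with a median log2 ratio of 0.11 against 0.04 over all genes. With TMM scaling the same counts were 8 and 6. On the 129 side stood Zfp354a, Zfp7 (69.3% ± 5.62), Zfp454 (64.9% ± 6.16) and Zfp251 (64.5% ± 2.45). On the CAST side stood Zscan22 (27.4% ± 5.05), Mzf1 (34.5% ± 6.20), Zfp446 (39.8% ± 3.23) and Zbtb45 (47.4% ± 1.52). Genes of this type bind DNA through tandem fingers, and many lie in clusters of near copies.

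Enzymes of amino acid, fatty acid and sugar metabolism were higher on CAST in 4 of 7 genes and higher on 129 in 1. Acacb and Mcat (45.3% ± 1.45), which make and transfer malonyl groups, and Fasn (48.2% ± 0.385), which builds fatty acids from them, were all higher on CAST, as was Cyp2d22 (20.7% ± 13.2), a cytochrome P450 with near copies in the genome. Pycr1, of proline synthesis, was higher on 129 (55.2% ± 0.537), a call lost in DESeq2, where the counts were 0 and 4. The SD of Pycr1 and of Fasn over 5 clones was below 0.6 percentage points. Solute carriers were higher on 129 in 1 of 7 genes, Slc38a10 (56.4% ± 0.642), and higher on CAST in 3, led by Slc26a11 (33.3% ± 4.23).

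Of 14 listed genes of RNA processing and ribosome assembly, 3 were higher on 129 and 5 on CAST. Within the list, Rrp7a, a ribosome assembly factor, had the largest share (78.0% ± 15.3). Ddx59 (43.5% ± 2.60) and the helicase Ddx47 (43.9% ± 1.04) had the lowest in the list. Alyref, an RNA-binding protein outside the list, was lower, at 34.6% to 37.5% in the KO clones. Of 3 genes of the mitochondrial ribosome and respiratory chain, only Mrpl12 was called (52.2% ± 1.71, higher on 129), and none was after TMM scaling or in DESeq2.

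Of 7 chromatin regulators, 3 were higher on 129 and none was called on CAST, although TMM scaling gave 3 and 1. Bahcc1, which has a domain that binds histone tails, was at 64.2% ± 5.17, the chromatin remodeller Chd2 at 53.2% ± 1.49 and Cbx5, the heterochromatin protein HP1 alpha, at 52.5% ± 1.36. Of 7 genes of DNA replication and repair, 2 were higher on 129 and 3 on CAST. The replicative ligase Lig1 was at 52.7% ± 0.925, the uracil glycosylase Ung at 51.0% ± 0.390, the single-strand binding subunit Rpa2 at 44.7% ± 1.54, Atad5, which unloads the sliding clamp, at 45.4% ± 1.22, and Tonsl, a replication repair factor, at 48.0% ± 3.43. In DESeq2 the counts were 2 and 0 for chromatin and 1 and 2 for replication and repair. Except for Bahcc1, the called genes of these 2 lists lay within 6 percentage points of an even split. This does not hold for all repair genes tested: Alkbh2, described below and outside the list, was at 33.2% to 35.9% in the KO clones.

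Of the 8 tested genes of the ubiquitin list, 4 were higher on 129 and 1 on CAST. These counts became 3 and 2 with TMM scaling and 2 and 1 in DESeq2. Outside the list, Uchl1 was at 28.2% to 37.5% in the KO clones and Wsb1 at 63.4% to 78.1%. Fbxo3 (60.1% ± 2.32) and the mitochondrial deubiquitinase Usp30 (58.7% ± 3.71) led on 129, and the ligase Rnf135 (40.5% ± 1.97) was higher on CAST. Genes of the cytoskeleton, motors and small GTPases split into 4 on 129, 5 on CAST and 5 not called. Here Myo18b, Arhgap39 (67.5% ± 4.85) and Ralgapb (64.5% ± 3.90) faced the mitotic kinesin Kif14 (35.3% ± 3.18) and the actin gene Actg1 (42.0% ± 3.38). All 4 tested genes of the list of receptors and receptor kinases were called, 2 in each direction. Adrbk2 (73.3% ± 2.63) and Gpr19 (61.3% ± 2.83) were higher on 129, Gprc5a and Amhr2 (41.2% ± 7.69) on CAST. The list leaves out other tested receptors, such as Cmklr1 and Ptafr, both higher on CAST, and Lrp6, higher on 129.

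The Ly6 family had 5 genes tested, with 1 higher on 129 and 2 on CAST. Ly6e was higher on 129 (69.8% ± 4.12, log2 ratio 1.24, SE 0.05), while Ly6f and Ly6a (35.8% ± 12.8) were higher on CAST, so members of 1 family differed in direction. The call of Ly6a was lost in DESeq2. Of 2 keratins, Krt8 was higher on 129 (61.4% ± 4.07) and its partner Krt18 was not called, at 13.8 reads per clone. Lysosome and autophagy genes gave 1 in each direction of 3, Hps4 (60.2% ± 4.2) on 129 and the sulfatase Sgsh (37.3% ± 6.47), with 21.6% of its exon bases shared with Card14 on the other strand, on CAST. The single gasdermin, Gsdmd, was not called (52.4% ± 4.71). Of 31 transcripts listed by symbol as noncoding or unnamed, 9 were higher on 129 and 3 on CAST, with 19 not called. TMM scaling gave 6 and 3 and DESeq2 5 and 2. The list holds protein-coding genes such as D430041D05Rik. By annotated biotype, 15 tested genes were not protein coding, 4 of them higher on 129 and 3 on CAST. Listed transcripts included the host genes of small nucleolar RNAs Snhg11 (65.3% ± 3.31), Snhg12 (52.8% ± 1.43) and Snhg3 (52.4% ± 2.05). All were higher on 129, although 71.5% of the exon bases of Snhg3 overlap a gene on the other strand. No imprinted gene of the list was in the panel, so a known effect of parent of origin could not be used as a check.

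The panel covers stretches of neighbouring genes, 22 in all where genes less than 1 Mb apart are joined. Where neighbours were both called, 97 of 151 pairs (64.2%) went in the same direction, and 89 of 138 (64.5%) once pairs that share exon bases were left out. Among pairs of called genes on different chromosomes it was 13313 of 26505 (50.2%). These pairs share genes and are given as a description. Every stretch with 10 or more genes tested held calls in both directions.

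On chromosome 5, the stretch from Srrd to Foxn4 had 21 genes tested, of which 10 were higher on 129, 9 on CAST and 2 were not called. The direction changed several times along it, with some runs of neighbours in the same direction. Hps4, Myo18b, Adrbk2, Crybb3 (69.2% ± 14.4), 2900026A02Rik (60.7% ± 8.34) and Sgsm1 (68.3% ± 5.50) were higher on 129, with Tmem211 between them on CAST (31.8% ± 13.7). Wscd2, Cmklr1 and Ficd (42.8% ± 7.77) then followed on CAST, and Sart3 (53.8% ± 0.620) and Iscu (70.9% ± 10.1), a scaffold for iron-sulfur clusters, on 129. Coro1c (47.2% ± 2.41), Svop and Ssh1, a phosphatase that activates the actin-severing protein cofilin (26.7% ± 1.83, log2 ratio -1.46, SE 0.04, adjusted p = 1.83e-31), were on CAST. At the end of the stretch, Usp30 and Ung were higher on 129, while Alkbh2, a DNA repair dioxygenase (34.3% ± 1.13), and Acacb were higher on CAST. Of the exon bases of Alkbh2, 29.5% overlap Usp30 on the other strand.

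On chromosome 6, the stretch from Etv6 to 8430419L09Rik had 14 genes tested, with 5 higher on 129, 4 on CAST and 5 not called. Etv6, an ETS-family repressor (64.1% ± 2.32), Bcl2l14, the Wnt coreceptor Lrp6 (55.9% ± 7.83), Gpr19 and Hebp1 were higher on 129. The phosphatase Dusp16 (33.4% ± 3.17), Crebl2 (40.8% ± 6.18), Ddx47 and Gprc5a were higher on CAST. Gprc5a at 22.0% ± 5.75 and Hebp1 at 81.6% ± 2.41 stood next to each other. Cdkn1b, the cell cycle inhibitor p27, lay between such genes at 50% ± 1.75 (log2 ratio -0.01, SE 0.06, adjusted p = 0.929).

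**Figure D3:**
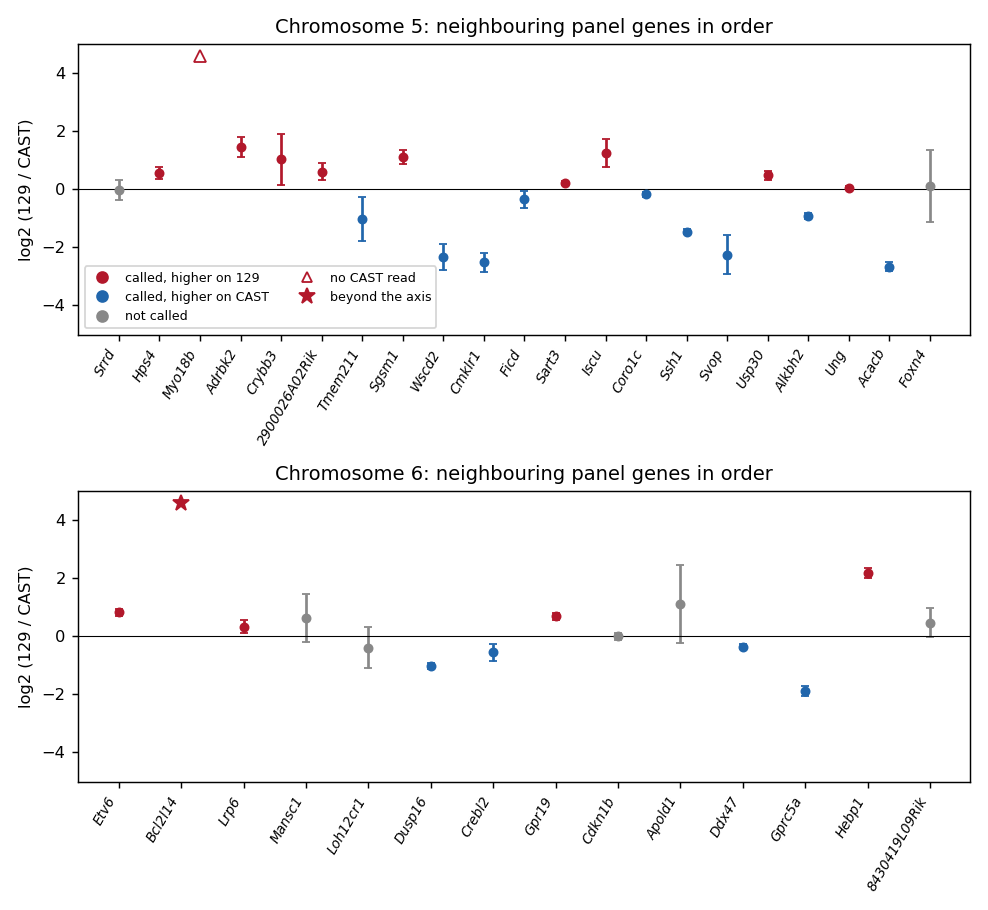
Log2 ratio of 129 over CAST in the KO clones (y axis) with its 95% interval, for the genes of the chromosome 5 and chromosome 6 stretches in order (x axis). Neighbouring genes such as Gprc5a and Hebp1 lie on opposite sides of 0, Myo18b (triangle) has no CAST read and Bcl2l14 (star) lies beyond the axis at 9.16.

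Among the 8 chromosomes with 20 or more genes, the median 129 share ran from 49.4% ± 1.20 (SD over 5 clones, 20 genes) on chromosome 6 to 54.2% ± 0.867 (29 genes) on chromosome 2. The span between the highest and the lowest chromosome in a clone was 5.51 ± 1.63 percentage points. With a minimum of 50 reads it was 5.76 ± 0.709 over the same 8 chromosomes, an alternative added after the data were seen, and 4.5 ± 0.703 over the 7 that still had 20 genes, which leaves out chromosome 6. Chromosomes 11 (100 genes) and 15 (127 genes) were at 50.1% ± 0.435 and 50.4% ± 0.603. Chromosome 5 was at 52.2% ± 1.33 by the median gene but at 46.0% ± 0.552 by pooled reads, which weight genes such as Ssh1 (3842 reads per clone) and Alkbh2 (2177) by their depth. By pooled reads chromosome 6 was at 45.5% ± 1.84. Chromosome 13, with 5 genes, had a median of 56.1% ± 2.56, and chromosome 9 had 1 gene, at 44.8% ± 9.84.

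The same allele test in the 8 Chen2008-1 clones called 268 of 398 genes (67.3%), 139 higher on 129 and 129 higher on CAST. The 2 fits share no clone but share the parental line and the probes. Genes near the Chen2008-1 enhancer, such as Trim28, Zbtb45 and Ube2m, were kept in these counts, although 1 chromosome is deleted there in the Chen2008-1 clones. Of the 252 genes called in the KO clones and tested in both, 212 (84.1%) were called in the same direction in the Chen2008-1 clones. These made up 79.1% of the calls in that set. Of 62 such genes with a 2-fold or larger difference in the KO clones, 59 were called in the same direction. The other three were Akr1c14, Akr1c12 and Crybb3, which had mean shares of 75%, 68.4% and 69.2% in the KO clones and 58.9%, 61.2% and 48.5% in the Chen2008-1 clones. Their difference between the sets was not called (adjusted p of 0.610, 0.269 and 0.293), and the Akr1c genes are near copies of each other. Across 396 genes, which are not independent replicates, the log2 ratios of the 2 sets had a Pearson r of 0.90 and a Spearman rho of 0.83, and their median absolute difference was 0.15.

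**Figure D4:**
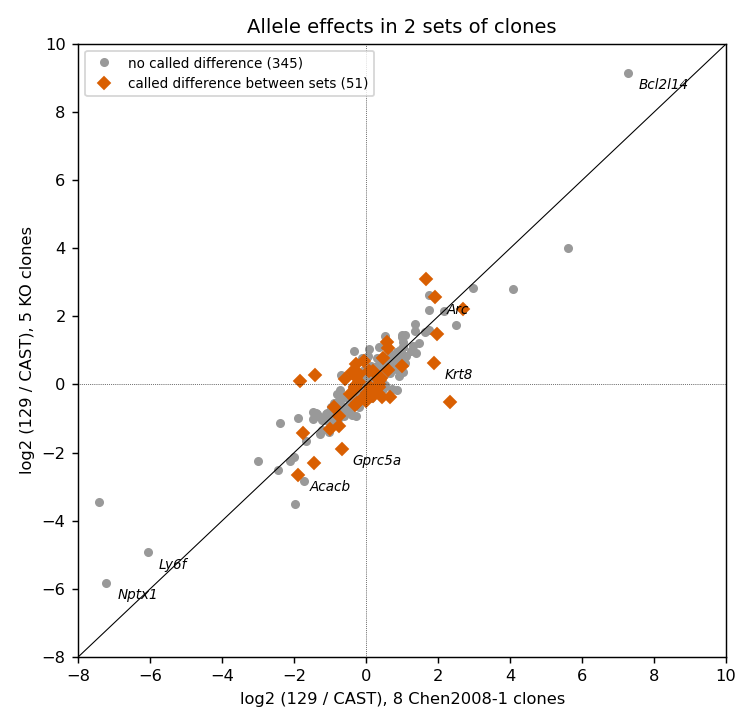
Log2 ratio of 129 over CAST in the 5 KO clones (y axis) against that in the 8 Chen2008-1 clones (x axis), 1 point per gene tested in both, with genes whose ratio differed between the sets as diamonds and a line of equal ratios. Bcl2l14, Nptx1 and Ly6f are at the ends in both sets, and Krt8 and Gprc5a lie below the line.

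Individual large differences recurred in the second set. Bcl2l14 had a 129 share of 98.0% to 100% in the 8 Chen2008-1 clones (median 99.7%), Hebp1 one of 79.5% to 83.2% (median 82.0%) and Cmklr1 one of 13.3% to 19.9% (median 14.2%). For Hebp1 the ratio differed between the sets by 0.01 (SE 0.08, adjusted p = 0.994) and for Cmklr1 by -0.04 (SE 0.18, adjusted p = 0.941). Myo18b was at 83.3% to 100% and Cabp5 at 0% to 15.4%, so both alleles of these genes had reads in at least 1 clone.

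The ratio itself differed between the clone sets for 51 of 398 genes (12.8%) by the allele by set term. The 129 share was higher in the KO clones for 22 of them (5.53%) and lower for 29 (7.29%). Without clone B4 the count fell to 33. Of the 51 genes, 38 were called within the KO clones, 25 had a ratio of larger size there and 19 had ratios of opposite sign. In 7 genes the alleles were called in opposite directions in the 2 sets: Sar1b, Akr1c13, Myc, Them6, Epb4.1, Bend4 and 2900026A02Rik. Myc, the growth-promoting transcription factor, had a share of 44.6% ± 3.19 (SD, n = 5) in the KO clones and 52.5% ± 3.40 (SD, n = 8) in the Chen2008-1 clones (adjusted p of the difference 0.00179). The clone set goes with the deleted enhancer and with a number in the column names whose meaning is not given. Clone set, enhancer, whatever that number stands for and the culture history of the clones therefore cannot be told apart. The selection batch in the genotype table was not used here.

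Krt8, a keratin of simple epithelia, Gprc5a and Gpr19, an orphan receptor, were among the genes of smallest p for this difference. These genes, Arc and Epb4.1 were named by that p, so that their clone sets lie apart follows largely from the choice. In how many of all genes the sets lie apart was not counted. For Krt8 the KO clones had 129 shares of 62.8%, 62.8%, 66.7%, 56.0% and 59.0% in B4, C4, G2, H2 and H4, and the Chen2008-1 clones had 75.1% to 81.4% with a median of 78.8%. The sets did not overlap, and the log2 ratio was lower by 1.25 in the KO clones (-1.25, SE 0.14, adjusted p = 1.14e-05). For Gpr19 the shares were 61.9%, 63.4%, 59.1%, 64.3% and 57.6% against 42.2% to 51.9%, median 49.8%, again without overlap (difference 0.74, SE 0.08, adjusted p = 1.14e-05). Gprc5a, with 14.4% to 28.8% in the KO clones, was at 32.6% to 41.4% in the Chen2008-1 clones (difference -1.20, SE 0.15, adjusted p = 2.58e-05).

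Arc was at 76.2% to 81.9% in the Chen2008-1 clones, below all KO clones (difference 0.64, SE 0.08, adjusted p = 3.31e-05). The same held for Epb4.1, a membrane skeleton protein, in the other direction, with 48.0%, 44.3%, 44.7%, 42.1% and 40.8% against 50.6% to 55.9% (difference -0.53, SE 0.08, adjusted p = 0.000131). Acacb was at 17.1% to 29.0% in the Chen2008-1 clones (difference -0.78, SE 0.14, adjusted p = 0.000955), Wscd2 at 22.0% to 37.5% (-0.87, SE 0.24, adjusted p = 0.0239) and Sult4a1 at 61.8% to 86.8% (1.44, SE 0.36, adjusted p = 0.0111). These 3 genes kept the direction of the KO clones with a smaller ratio. Notum was the reverse, with 83.6% to 87.9% (-0.45, SE 0.11, adjusted p = 0.00973). Sult4a1 and Notum overlapped between the sets, and Acacb and Wscd2 did not. Lying apart was not particular to these genes. Gsdmd, named only as a list member, was at 47.6% to 59.4% in the KO clones and 34.7% to 42.8% in the Chen2008-1 clones. The share of all genes that lie apart was not counted.

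Clone E6, which belongs to the Chen2008-25 set but has 1 deleted chromosome, was within the range of the KO clones for Arc (86.0%), Sult4a1 (86.1%), Gpr19 (61.9%), Gprc5a (28.1%) and Wscd2 (12.2%). It was just below that range for Acacb (11.6%), just above it for Notum (85.0%) and further above it for Krt8 (73.3%), where it stayed short of the lowest Chen2008-1 clone. As a single clone it allows no test.

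**Figure D5:**
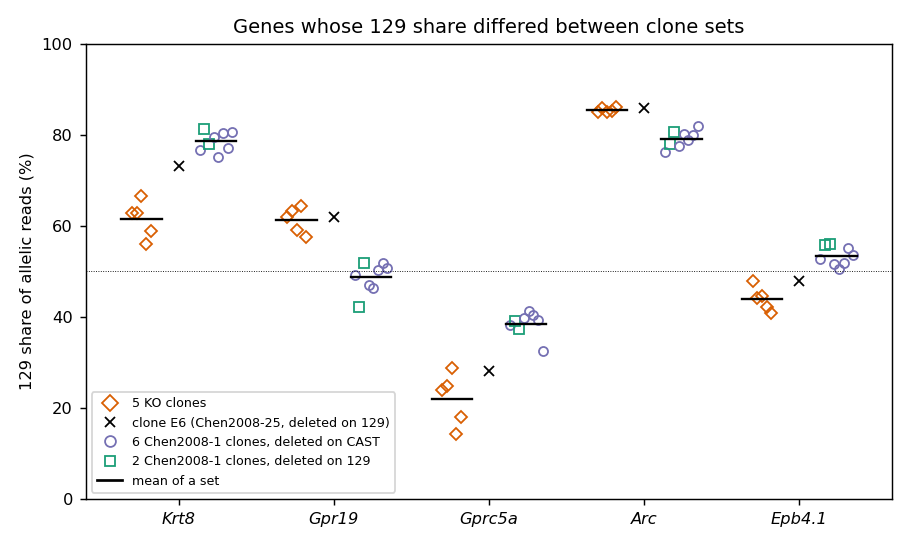
Share of reads from 129 (y axis, percent) in each clone for genes whose allelic ratio differed between the clone sets, with KO clones as diamonds, clone E6 as a cross, Chen2008-1 clones as circles (deleted on CAST) or squares (deleted on 129) and set means as bars; genes are along the x axis. Krt8, Gpr19, Gprc5a, Arc and Epb4.1 were chosen for the smallest p of this difference, so that their clone sets lie apart follows largely from the choice.

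No allele difference was called in the KO clones for B3gnt7 or Trim28, each near 1 of the enhancers, where both chromosomes were alike. Trim28 was called after TMM scaling or centring. B3gnt7, a glycosyltransferase gene near the Chen2008-25 enhancer, had 129 shares of 50.8%, 50%, 54.0%, 47.7% and 69.0% in the KO clones, with H4 the highest (log2 ratio 0.18, SE 0.15, 95% interval -0.11 to 0.48, adjusted p = 0.290). It was at 47.9% to 56.3% in the Chen2008-1 clones, which are intact there, and at 26.0% in clone E6. Trim28, near the Chen2008-1 enhancer, was at 48.9% to 50.3% in the KO clones and at 29.0% to 69.7% in the Chen2008-1 clones, where 1 chromosome is deleted. Zbtb45, next to Trim28 in gene order, was called in the KO clones (47.4% ± 1.52, higher on CAST, adjusted p = 3.35e-05). In the Chen2008-1 clones it was at 22.4% in D10 and 22.1% in D2, read as deleted on 129, and at 70.2% to 74.1% in the others. Ube2m, the next gene in order, was at 49.5% in D10, 47.6% in D2 and 55.3% to 60.6% in the other Chen2008-1 clones.

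A few genes varied between KO clones beyond counting error. Over 307 genes with a mean of 100 or more reads, the chi-square per degree of freedom of the 5 clones had a median of 1.84, or 0.918 when halved because each fragment adds 2 mates. Before halving it was above 10 for 3 genes, named here after their values were seen: Gprc5a (58.8, shares from 14.4% to 28.8%), Ly6e (19.9, from 63.1% to 73.8%) and Notum (19.5, from 77.6% to 84.5%). All 3 were nevertheless on the same side of 50% in every KO clone.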

How the data were processed

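Allelic reads were measured in 14 clones by RNA-seq with hybrid selection, and the 5 KO clones are described. The deposited tables hold whole-number read counts per gene in a 129 and a CAST column, not normalized, per the file headers. The submitters' processing notes name mm9 as the build. Which aligner and counter were used, how reads were assigned to an allele and whether strand was used are points not given in the sources used here, and bias toward the reference strain was not tested. Genotypes are text in a separate deposited table of other content (clone, genotype, selection batch), per the file headers.

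The 2 columns of each clone were fitted in edgeR 4.0.16 (R 4.3.3) by the quasi-likelihood test with terms for clone and allele. Both columns were given the total of the clone as library size, so that a share of 50% is no difference. The allele columns are paired because they come from the same clone. The p-values were adjusted by Benjamini-Hochberg over all genes tested, with a threshold of 0.05, and every adjusted p printed is from edgeR unless another tool is named. The Chen2008-1 clones were fitted separately, and the difference between sets was tested by the allele by set term. Alternatives were TMM scaling, centring, limma 3.58.1, DESeq2 1.42.0, other read minimums, halved counts, no block and leaving out clones. Chromosomes and gene order came from GENCODE by symbol, in a later build, so no coordinates of genes are given. Of the KO clones' 10 pairs, the chi-square per degree of freedom on reads was 3.46 to 13.2, and 1.73 to 6.60 when halved because mates are counted, so each clone was kept as 1 sample.

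The genes named are the 12 largest called differences in each direction with all 5 clones on 1 side, the 5 best measured within -0.2 to 0.2, the 5 of smallest p between sets, B3gnt7 and Trim28, and members of described lists and stretches. A few genes are not reported here. Members and lists were chosen with earlier results of these data known. On simulated counts for 406 genes, 2.91% of genes without a difference were called, and 77.6% and 95.5% of those with log2 ratios of 0.5 and 1.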

Additional observations from a re-analysis of the deposited data

Results flagged for a closer look

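In 43 groups of 5 KO clones checked for a clone far from the other four, 3 had one, and chance gives about 1 in 20. Each time it was clone H2: a 129 share of 99.3% for Bcl2l14, where the other clones were at 100%, of 77.6% for Notum, and a median share of 55.7% on chromosome 2. The flag for Bcl2l14 rests on 2 CAST reads, and with the other clones tied any CAST read would give it.

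The allelic log2 ratio differed between the KO and the Chen2008-1 clones, by edgeR's allele by set term, for 9 of the genes named for their size of effect or for the smallest p between sets. The difference was 1.44 for Sult4a1, 0.64 for Arc, 0.74 for Gpr19, -0.45 for Notum, -0.78 for Acacb, -0.87 for Wscd2, -1.20 for Gprc5a, -1.25 for Krt8 and -0.53 for Epb4.1. Krt8, Gpr19, Gprc5a, Arc and Epb4.1 were named by the p of this same test, so their calls follow from that choice. Over all genes the difference was called for 51 of 398 (12.8%). Clone set, deleted enhancer, the number in the column names and culture history cannot be told apart.

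The X-linked genes, which enter no comparison, had 99.4% of their reads in the KO clones assigned to 129.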

How the results depend on the processing

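The 253 calls in the KO clones became 241 with TMM scaling (113 on 129 and 128 on CAST), 244 with centring, 207 in DESeq2, 238 and 244 in limma with pseudocounts of 0.5 and 5, 262 without a read minimum, 226 with a minimum of 50 reads and 255 with halved counts. They were 253 with clone E6 added and 218 to 246 without 1 KO clone. Without the replicate block, which drops the pairing of the alleles by clone, 184 genes were called. The larger count was thus on 129 as deposited and on CAST after TMM scaling, centring or in DESeq2, while scaling moved the median log2 ratio by at most 0.04. The Chen2008-1 fit gave 256 to 272 calls without 1 of its clones. The difference between sets gave 33 to 54 calls without 1 clone, the lowest without B4, and 44 to 57 under the other alternatives. The cause was not tested. Of 580 values of single genes under the alternatives, 572 kept direction and side of the threshold and none reversed. Calls were lost for Hnrnpab and Rpl8 without the block (adjusted p of 0.482 and 0.207) and for P4hb under 4 alternatives, and Trim28 gained one with TMM scaling (-0.05, adjusted p = 0.000599) and with centring. Differences in genes with under 162 reads per clone are limited by depth. The planned comparison of promoter letters was not run, since 67.7% of the genes had a promoter.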
